A study of Mus musculus with 9 samples.

Results

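The MHC class II genes of the mouse and Ciita, the gene of their transcriptional coactivator, were followed across 3 genotypes of c-Kit-selected bone marrow cells. The set holds 10 genes chosen by name, and all 10 were found among the 43629 genes of the deposited table and passed the filter on low counts that kept 15948 genes. They are Ciita, Cd74, the classical chain genes H2-Aa, H2-Ab1 and H2-Eb1, and the accessory genes H2-DMa, H2-DMb1, H2-DMb2, H2-Oa and H2-Ob. Bulk RNA sequencing was done on 9 libraries of CD117 (c-Kit) bead-selected marrow from C57BL/6 mice, and every mouse had received pIpC, an interferon-inducing RNA mimic. The first group, Cbfb+/MYH11 (MYH11 below, 3 libraries), carried 1 Cbfb allele that encodes CBFβ-SMMHC, in which CBFβ, the partner subunit of RUNX1, is joined to a smooth muscle myosin tail as in human inv(16) leukaemia. The second group, Cbfb+/mDE (mDE below, 3 libraries), carried 1 fusion allele with a changed multimerization domain at its C-terminus. The third group was WT (3 libraries). Ages, the Cre line, if any, and the number of mice behind a library are not given in the labels, so a p-value here reflects the spread of these samples alone, and that spread may be technical.

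MHC class II molecules are heterodimers of an alpha and a beta chain that carry peptides from endosomes to the cell surface for recognition by CD4+ T cells. In the endoplasmic reticulum the chains bind the invariant chain, the product of Cd74. In endosomes H2-DM exchanges the remaining invariant chain fragment for peptide, and H2-O holds H2-DM in check. CIITA does not bind DNA itself but is recruited to class II promoters by a complex of RFX, CREB and NF-Y proteins on the X and Y boxes. Dendritic cells, B cells and macrophages are the marrow's known class II-positive cells, whereas most c-Kit-positive progenitors carry little class II.

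The libraries held 39300366 to 50073097 reads, and values are normalised reads unless a sentence says otherwise. A count of 3 reads was worth 2.56 to 3.52 normalised reads, so each member lay far above the detection limit in every library, and intervals or floors of this kind cover counting error only. Myh11, whose tail is part of the fusion, averaged 196 ± 21.3 in MYH11 and 37.9 ± 8.12 in mDE libraries, against 7.02 ± 2.06 in WT libraries (SD, n = 3 each). Kit itself averaged 3538 ± 321 in MYH11 and 7256 ± 329 in mDE libraries, against 7504 ± 253 in WT libraries. A list of 11 neutrophil genes took 0.418% to 1.91% of normalised reads in MYH11 and 11.4% to 14.2% in mDE libraries, against 10.2% to 11.9% in WT libraries. As these are bulk libraries, fewer cells of a type and less RNA per cell cannot be told apart. Both knock-in groups were compared with the same WT libraries.

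Of the 10 genes, 9 were higher in MYH11 than in WT libraries and 0 were lower. By the same limma test (Benjamini-Hochberg adjusted p under 0.05), 59.8% of all tested genes differed between MYH11 and WT, 32% being higher and 27.8% lower. The MYH11 and WT libraries did not overlap for those 9 genes, nor for 68.7% of all tested genes. The median log2 fold change of the 10 genes was 2.16, beside 0.02 for all tested genes. In mDE against WT libraries, limma called 0 of the 10 genes, where 1.24% of all tested genes were called, 0.821% higher and 0.42% lower. One of the 10, H2-Ob, had an unadjusted p under 0.05, as did 19.8% of all tested genes. edgeR and DESeq2 also called 0 of the 10, where they called 1.18% and 5.92% of all tested genes. The median log2 fold change was -0.03, beside 0.01 for all tested genes. In MYH11 against mDE libraries, 8 of the 10 genes were higher and 0 lower, where 55.6% of all tested genes were called, 29.6% higher and 26% lower. The MYH11 and mDE libraries did not overlap for those 8 genes, nor for 62.2% of all tested genes.

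**Figure D1:**
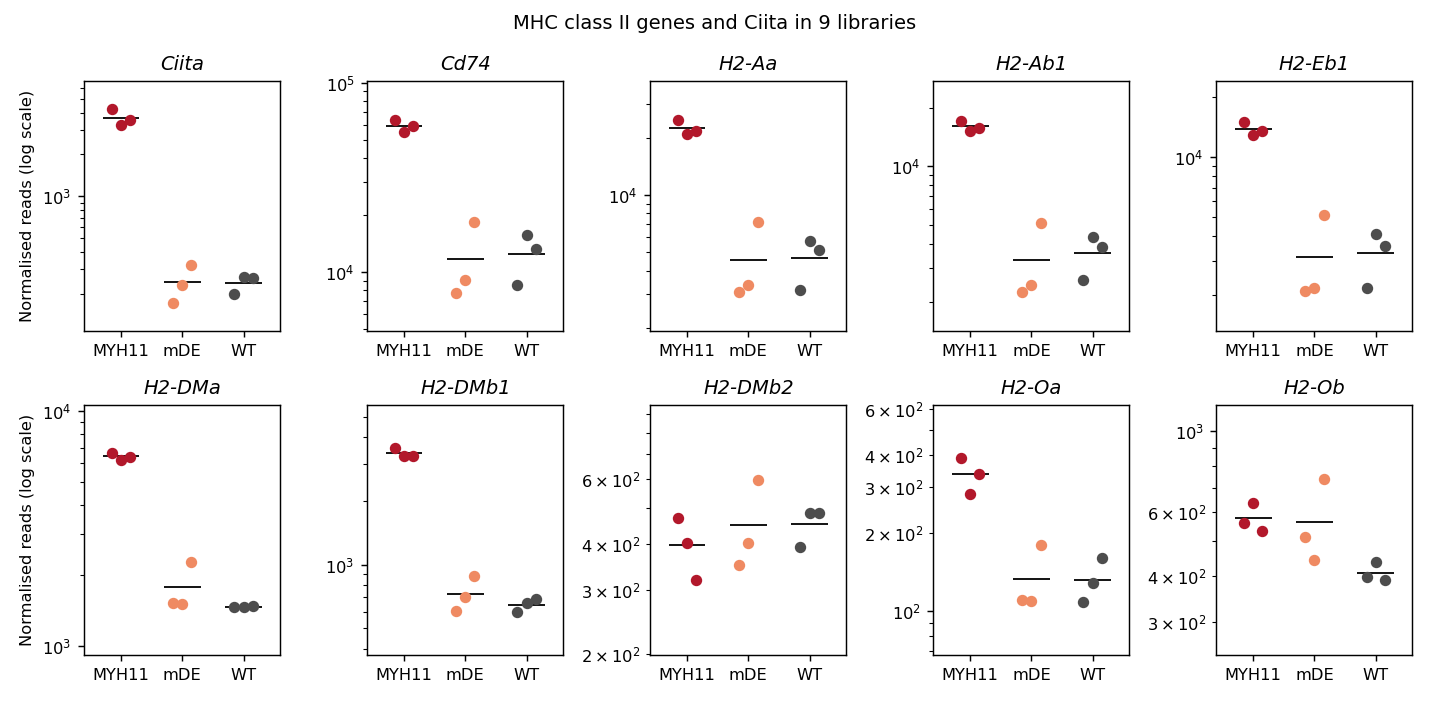
Normalised reads of the 10 genes in each library (points) and the mean of the 3 libraries of a group (bars), on log axes that differ in range between panels. The MYH11 points stand above all mDE and WT points for 8 genes; H2-DMb2 and H2-Ob are the 2 exceptions.

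Ciita lies at chr16:10480059-10528418 on the plus strand (GRCm38). It had 4213, 3239 and 3528 normalised reads in the MYH11 libraries. The mDE libraries had 172, 229 and 324, and the WT libraries had 198, 263 and 257. Every MYH11 library was about an order of magnitude above every other library, while the mDE and WT libraries overlapped. The MYH11 mean of 3659.9 ± 501 was 15.3-fold the WT mean of 239 ± 36.1, a log2 fold change of 3.93 with a standard error of 0.22 (limma adjusted p = 9.54e-07, n = 3 each). Against mDE libraries, whose mean was 242 ± 76.8, the log2 fold change was 3.95 (limma adjusted p = 1.15e-06). Between mDE and WT libraries the log2 fold change was -0.02, with a 95% interval of -0.51 to 0.46 (limma adjusted p = 0.968). Exons of Ciita share 329 bases (3.45% of its exon bases) with exons of Dexi on the opposite strand, and strandedness is not given in the sources used here, so reads of that stretch may belong to either gene.

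Cd74, at chr18:60803848-60812652 on the plus strand, was the most abundant of the set. It had 63744, 55098 and 59164 normalised reads in MYH11 libraries. The mDE libraries had 7788, 9043 and 18317, and the WT libraries had 8582, 15738 and 13218. Again all MYH11 libraries were higher than all others, mDE replicate 3 was the highest library outside the MYH11 group, and mDE and WT overlapped. Cd74 was 4.74-fold higher in MYH11 than in WT libraries, with a log2 fold change of 2.29 and a standard error of 0.31 (limma adjusted p = 0.000183). In mDE against WT libraries the log2 fold change was -0.16 with a 95% interval of -0.85 to 0.54 (limma adjusted p = 0.808).

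The classical chains lie side by side on chromosome 17. H2-Ab1 (chr17:34257689-34269419, plus strand) and H2-Aa (chr17:34282744-34287823, minus strand) encode the beta and alpha chains of I-A, and H2-Eb1 (chr17:34305867-34316674, plus strand) encodes the beta chain of I-E. H2-Aa had 24917, 20986 and 21674 normalised reads in MYH11 libraries, 3066, 3341 and 7172 in mDE libraries, and 3168, 5694 and 5159.7 in WT libraries. H2-Ab1 had 15172 to 17229 normalised reads in MYH11 and 2258 to 5111 in mDE libraries, against 2585 to 4329.6 in WT libraries. H2-Eb1 had 12826 to 15066 in MYH11 and 2112 to 5066 in mDE libraries, against 2189 to 4086 in WT libraries. In each of these genes the MYH11 libraries did not overlap the rest, mDE replicate 3 stood above all WT libraries, and mDE replicates 1 and 2 stood below WT replicates 2 and 3. The log2 fold change in MYH11 against WT libraries was 2.31 for H2-Aa, 2.20 for H2-Ab1 and 2.11 for H2-Eb1, with limma adjusted p-values of 0.000196, 0.000166 and 0.000467. The limma adjusted p-values of these genes in mDE against WT libraries were 0.864, 0.735 and 0.826.

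Outside the MYH11 group these 4 genes shared the spread between libraries. Leaving out mDE replicate 3 changed the log2 fold change of Cd74 in mDE against WT libraries to -0.53 (limma adjusted p = 0.278), and no member was called without it. Cd74, H2-Aa, H2-Ab1 and H2-Eb1 together took 0.291% ± 0.0193 of all normalised reads in MYH11 and 0.0485% ± 0.0216 in mDE libraries, against 0.0532% ± 0.0138 in WT libraries (SD, n = 3 each).

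H2-DM is the peptide exchange factor. H2-DMa (chr17:34119541-34139101, plus strand) encodes its alpha chain and had 6672, 6207 and 6393 normalised reads in MYH11 libraries, 1531, 1516 and 2283 in mDE libraries, and 1465, 1468 and 1478 in WT libraries. The WT libraries were nearly equal, and all mDE libraries lay above them. H2-DMa was 4.37-fold higher in MYH11 than in WT libraries (log2 fold change 2.13, limma adjusted p = 2.04e-06). The mDE difference of 0.25 on the log2 scale did not pass the test (limma adjusted p = 0.346), and 26.1% of all tested genes had mDE and WT libraries that did not overlap. H2-DMa shares 360 exon bases (10.44%) with Brd2.

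The DM beta chain has a pair of genes in the mouse. H2-DMb1 (chr17:34153072-34160230, plus strand) had 3567, 3266 and 3280.4 normalised reads in MYH11 libraries, 604, 701 and 881 in mDE libraries, and 599, 657 and 687 in WT libraries. The MYH11 libraries stood clear of all others, and H2-DMb1 was 5.20-fold higher than in WT libraries (log2 fold change 2.38, limma adjusted p = 7.13e-07). H2-DMb2 (chr17:34143307-34151555, plus strand) had 469.9, 403 and 319 normalised reads in MYH11 libraries, 349, 401 and 598 in mDE libraries, and 392, 485 and 485 in WT libraries. All 3 groups overlapped, and H2-DMb2 was the 1 gene of the set that did not pass the test in MYH11 against WT libraries, with a log2 fold change of -0.20 and a 95% interval of -0.67 to 0.27 (limma adjusted p = 0.429). H2-DMb1 made up 89.5% ± 1.45 of the reads of the pair in MYH11 and 62.2% ± 2.25 in mDE libraries, against 58.9% ± 1.47 in WT libraries. The MYH11 shares did not overlap the others, which gives the smallest two-sided p that an exact permutation test of 3 against 3 libraries allows, 0.1 (0.158 after Benjamini-Hochberg adjustment over 30 ratio comparisons). The reference transcripts of the pair are 94.59% identical over 1219 aligned bases, and 26.64% of the 50-base stretches of H2-DMb1 also occur in H2-DMb2, so the division of reads between them is uncertain.

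H2-O, the modulator of H2-DM, is made by fewer cell types than the rest of the pathway, B cells and thymic epithelium among them. H2-Oa (chr17:34092340-34095234, plus strand), its alpha chain gene, had 390.4, 281 and 338 normalised reads in MYH11 libraries, 110.2, 109 and 179 in mDE libraries, and 108, 128 and 159.7 in WT libraries. It was 2.55-fold higher in MYH11 than in WT libraries, with no overlap (log2 fold change 1.35, limma adjusted p = 0.000786). H2-Ob (chr17:34238903-34254414, plus strand), its beta chain gene, had 561, 635 and 533 in MYH11 libraries, 513, 443 and 738 in mDE libraries, and 398, 437 and 389.9 in WT libraries. Both knock-in groups lay above all WT libraries, while MYH11 and mDE overlapped. H2-Ob was 1.41-fold higher in MYH11 than in WT libraries (log2 fold change 0.49, limma adjusted p = 0.0292). That call was lost without MYH11 replicate 1 (limma adjusted p = 0.0579), MYH11 replicate 2 (0.0879), WT replicate 1 (0.0724) or WT replicate 3 (0.0807). The mDE value of 0.44 on the log2 scale, with a 95% interval of 0.06 to 0.81 before adjustment, did not pass the test over all genes (limma adjusted p = 0.204). Between MYH11 and mDE libraries the log2 fold change of H2-Ob was 0.06 (limma adjusted p = 0.788).

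**Figure D2:**
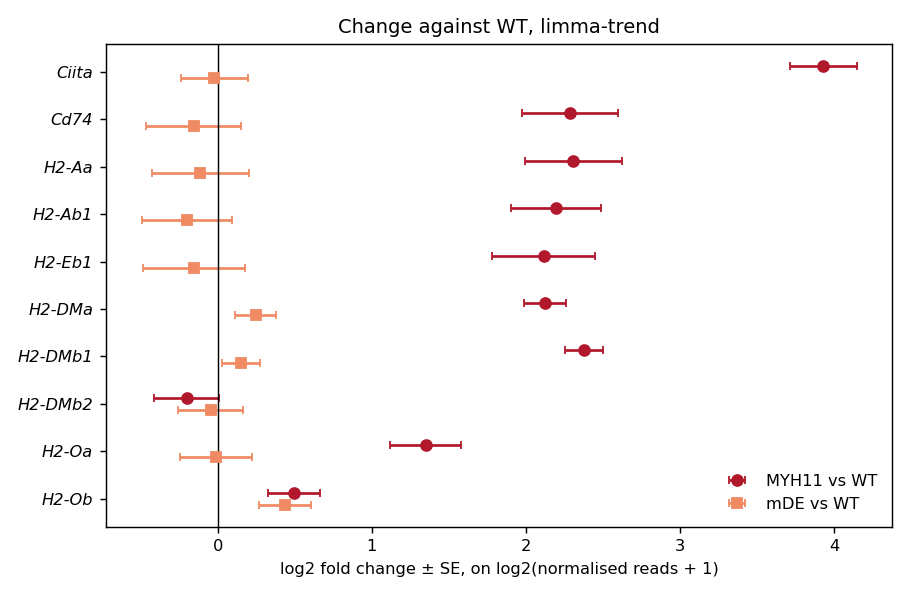
Log2 fold change against WT with its standard error (limma, log2(normalised reads + 1)) for each of the 10 genes, MYH11 as circles and mDE as squares. Ciita stands at 3.93 and 6 genes lie between 2.11 and 2.38 in MYH11, while the mDE values run from -0.20 to 0.44.

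Sequence just before the RefSeq transcript start is shown for the 6 members whose RefSeq promoter window (250 bases before to 50 after the transcript start, GRCm38.p6) holds a Y box, so that the element read by NF-Y can be compared between genes that were higher in MYH11 libraries and H2-DMb2, which was not. The RefSeq start is the GENCODE gene start in H2-Aa and H2-Eb1, and lies 2 bases inside the GENCODE gene in H2-Ob, 39 in H2-Oa, 119 in H2-DMb1 and 1942 in H2-DMb2, so the stretches of H2-DMb1 and H2-DMb2 and part of that of H2-Oa fall within the gene spans given above. Each stretch of 67 bases is printed 5′ to 3′ on the gene's own strand. Capitals mark the Y box TGATTGG near the 3′ end and, before it, the X box AACNNATG or the CRE TGACGTCA, where these letters occur. Only these exact letters were searched, so a stretch without them may hold another form of the box.
H2-Aa (chr17:34287852-34287918, minus strand): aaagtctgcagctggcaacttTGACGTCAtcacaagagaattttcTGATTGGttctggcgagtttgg
H2-Eb1 (chr17:34305761-34305827, plus strand): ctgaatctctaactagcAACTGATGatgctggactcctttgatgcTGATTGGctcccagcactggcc
H2-DMb1 (chr17:34153083-34153149, plus strand): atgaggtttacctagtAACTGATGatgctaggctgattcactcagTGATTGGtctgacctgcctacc
H2-DMb2 (chr17:34145112-34145178, plus strand): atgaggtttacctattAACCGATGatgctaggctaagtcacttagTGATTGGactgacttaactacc
H2-Oa (chr17:34092289-34092355, plus strand): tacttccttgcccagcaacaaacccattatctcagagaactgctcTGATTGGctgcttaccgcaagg
H2-Ob (chr17:34238801-34238867, plus strand): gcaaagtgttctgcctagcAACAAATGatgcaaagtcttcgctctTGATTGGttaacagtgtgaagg

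RefSeq windows were matched by symbol for 7 of the 10 genes, 8 windows in all; Ciita, Cd74 and H2-Ab1 had no entry. The Y box occurred in 6 of the 7 genes, in 9.0% of all 27025 genes with a window and in 7.82% of all 32851 windows, both strands being searched. The letters AACNNATG, called the X box here, occurred in 4 of the 7 genes, in 10.2% of all genes and in 8.86% of windows. The CRE occurred in 1, H2-Aa, in 2.03% of all genes and in 1.79% of windows. Both windows of H2-DMa, whose RefSeq starts lie 3291 and 5977 bases inside its GENCODE span, held none of these letters. The capitals do not overlap one another within a stretch. The Y box began 45 bases before the start in H2-Oa, 50 in H2-Aa, 59 in H2-Ob, 61 in H2-Eb1, 63 in H2-DMb1 and 92 in H2-DMb2. X to Y box starts were 26 bases apart in H2-Ob, 28 in H2-Eb1 and 29 in both H2-DMb1 and H2-DMb2. An X box followed on the same strand by a Y box 15 to 35 bases on occurred in 14 of 32851 windows (0.0426%), and these 4 genes were among their 14 genes. Both the letters and the spacing were chosen after the members' windows had been read. Of the other 10 genes 3 were tested, of which 0 were higher and 1, BC051142, was lower in MYH11 than in WT libraries (log2 fold change -0.67, limma adjusted p = 0.0223); this call was lost without MYH11 replicate 1 (0.0676), MYH11 replicate 3 (0.0515) or WT replicate 3 (0.0738). Between the stretches of H2-DMb1 and H2-DMb2, 9 of 67 bases differed, and both carry an X and a Y box, while 5.20-fold separated MYH11 and WT libraries for the first gene and no called difference for the second.

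**Figure D3:**
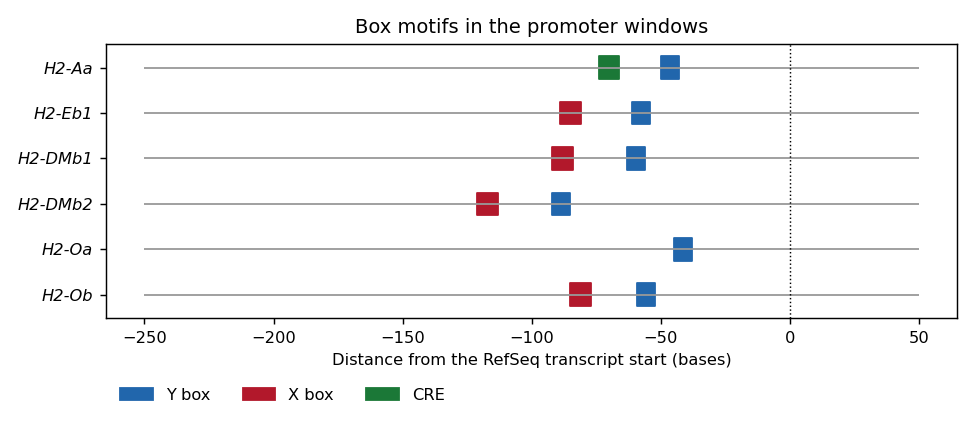
Position of the exact Y box, X box and CRE letters relative to the RefSeq transcript start, for the 6 genes whose windows hold a Y box. Grey lines span the windows. The Y boxes begin 45 to 92 bases before the start, and H2-DMb2 has the most distant pair.

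Per kilobase of exon the order of the set differed between the genotypes mainly through Ciita. Its level per kb was 384 in MYH11 and 25.4 in mDE libraries, against 25.1 in WT libraries, so that it was seventh in MYH11 and last of the 10 genes in the other groups. Cd74 stood first everywhere, with 35339.5 ± 2576 normalised reads per kb in MYH11 and 6978 ± 3425 in mDE libraries, against 7453 ± 2162 in WT libraries. H2-Eb1, H2-Ab1 and H2-Aa followed in that order in each group, but the libraries of neighbours among these 3 genes overlapped. By mean normalised reads their order was the reverse in each group (13771, 16084 and 22526 in MYH11), so it depends on the exon length used. H2-DMb1 was above H2-DMa in MYH11 libraries (2005 and 1863 per kb) and below it in mDE (433 and 515) and WT libraries (385 and 426). The libraries of that pair overlapped in the mDE group and not in the other 2. The gap in MYH11 was narrow, with the lowest H2-DMb1 library at 1943 and the highest H2-DMa library at 1935 per kb. By mean normalised reads H2-DMa was above H2-DMb1 in each group (6424 and 3371 in MYH11). The order of that pair in MYH11 libraries thus also depends on the exon length used. H2-Oa reached 239 per kb in MYH11 and 94.4 in mDE libraries, against 93.7 in WT libraries. H2-DMb2 had 227 per kb in MYH11, overlapping H2-Oa there, and 257 in mDE libraries, against 259.8 in WT libraries. H2-Ob had 107 per kb in MYH11 and 105 in mDE libraries, against 75.8 in WT libraries.

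Ratios between members were formed within each library. Cd74 over H2-Aa, per kb, was 5.97 ± 0.195 in MYH11 and 5.88 ± 0.208 in mDE libraries, against 6.06 ± 0.236 in WT libraries, with overlap between all groups. H2-Aa reads per Ciita read were 5.91, 6.48 and 6.14 in MYH11 libraries, 17.8, 14.6 and 22.1 in mDE libraries, and 16.0, 21.7 and 20.1 in WT libraries. All MYH11 libraries thus lay below the rest, as the 15.3-fold difference of Ciita was larger than the 4.82-fold difference of H2-Aa. H2-DM over H2-O, per kb, was 11.9 ± 0.591 in MYH11 and 6.12 ± 0.589 in mDE libraries, against 6.34 ± 0.340 in WT libraries. H2-Oa over H2-Ob, per kb, was 2.26 ± 0.504 in MYH11 and 0.897 ± 0.0649 in mDE libraries, against 1.24 ± 0.284 in WT libraries, and all 3 groups stood apart. The two-sided exact permutation p was 0.1, the smallest possible, for H2-Aa per Ciita, for H2-DM over H2-O and for H2-Oa over H2-Ob in MYH11 against WT libraries (0.158 after adjustment over the 30 comparisons).

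**Figure D4:**
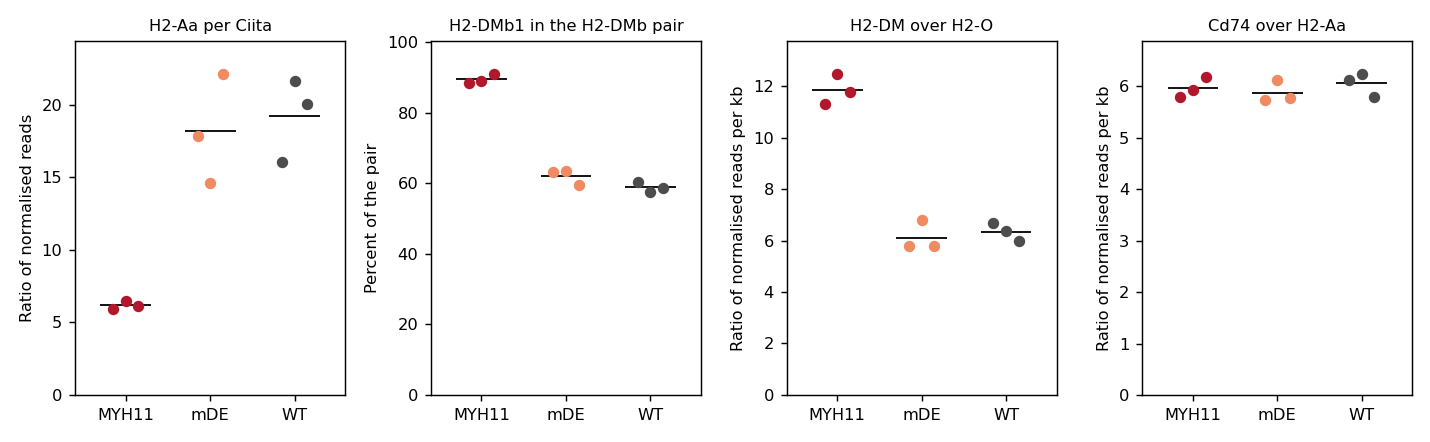
Ratios between members in each library (points) with the group mean (bars), all axes from 0. The MYH11 libraries lie lower for H2-Aa per Ciita (5.91 to 6.48), higher for the H2-DMb1 share (88.4% to 91.1%) and for H2-DM over H2-O (11.3 to 12.5), and among the other libraries for Cd74 over H2-Aa.

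Of the remaining class II genes, H2-Eb2, a further beta chain gene, averaged 28.8 ± 10.6 in MYH11 and 60.0 ± 31.9 in mDE libraries, against 51.1 ± 14.1 in WT libraries, and was not called in MYH11 against WT (limma adjusted p = 0.12). H2-Ea-ps, the I-E alpha pseudogene of this mouse strain, had a single read in 1 of the 9 libraries, and H2-Ea was not analysed here.

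The genes of the proteins that recruit CIITA and of the enzymes that act beside it had log2 fold changes of -0.63 to 0.60 in MYH11 against WT libraries. Of these 12 enhanceosome and coactivator genes, 8 were higher and 2 lower, where 32% of all tested genes were higher and 27.8% lower, with a median log2 fold change of 0.22 beside 0.02 for all genes. On leaving out 1 library, 7 to 10 of the 12 were called. The calls lost were those of Creb1, Nfya and Rfxank, which were among the higher genes. The RFX subunit gene Rfx5 averaged 885 ± 31.0 in MYH11 and 589.6 ± 42.7 in mDE libraries, against 592 ± 32.3 in WT libraries, a log2 fold change of 0.58 in MYH11 against WT (limma adjusted p = 0.000168). Rfxap, of the same complex, was 1.32-fold lower in MYH11 than in WT libraries (limma adjusted p = 0.0103), and the NF-Y subunit gene Nfyb was 1.54-fold lower (limma adjusted p = 1.23e-05). The acetyltransferase genes Crebbp and Ep300 rose 1.52-fold and 1.46-fold (limma adjusted p = 7e-05 and 0.000269). Rfxap was singled out after its values were seen, as 1 of the 2 genes that fell.

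Among 13 genes upstream of Ciita, 8 were higher and 2 lower in MYH11 than in WT libraries (32% and 27.8% of all tested genes), with a median log2 fold change of 0.52. Irf4, a transcription factor of the interferon regulatory family, averaged 2294 ± 447 in MYH11 and 482 ± 164 in mDE libraries, against 465 ± 58.6 in WT libraries, 4.93-fold higher in MYH11 than in WT (limma adjusted p = 2.35e-05). Socs1, the inhibitor of JAK signalling, was 5.31-fold higher (limma adjusted p = 6.26e-05), Jak2, a kinase of the interferon gamma receptor, 1.44-fold (8.14e-05) and Usf1, a factor that binds the interferon-responsive Ciita promoter, 1.44-fold (0.000105). Spi1, which encodes the myeloid and B cell factor PU.1 and was named after its value was seen, fell, with a log2 fold change of -0.84 (limma adjusted p = 0.000114).

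Of 11 genes for processing and turnover of class II molecules, 10 were higher and 0 lower (32% and 27.8% of all tested genes), with a median log2 fold change of 0.96. Ifi30, the thiol reductase that unfolds antigens in endosomes, averaged 14968 ± 2243 in MYH11 and 1844 ± 309.6 in mDE libraries, against 1989.7 ± 124 in WT libraries, 7.52-fold higher in MYH11 than in WT (limma adjusted p = 3.94e-07). Ctss, the cathepsin that trims the invariant chain, was 7.68-fold higher (limma adjusted p = 5.29e-06), Ctsz 2.41-fold (1.78e-06) and Sppl2a, the protease that removes the last invariant chain fragment, 1.52-fold (1.4e-05). The 1 gene not called, Ctsd, had a log2 fold change of -0.06 (limma adjusted p = 0.636) and was singled out after its values were seen.

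Class I presentation, the counterpart for peptides from the cytosol, had 7 of 17 genes higher and 0 lower in MYH11 than in WT libraries, with a median log2 fold change of 0.27. Of all tested genes 59.8% were called in either direction and 32% were higher. The share called in this list was thus below the general one, whereas the share higher was above it. Psmb10, an immunoproteasome subunit, had a log2 fold change of 0.85 (limma adjusted p = 5.73e-05), and Nlrc5, the class I coactivator related to CIITA, was 3.18-fold higher (0.000188). The peptidase gene Erap1 was 1.35-fold higher (limma adjusted p = 0.000574) and the proteasome activator gene Psme1 1.22-fold (0.00185). B2m, the class I light chain, had a log2 fold change of 0.00 (limma adjusted p = 0.988); it was singled out after its values were seen. Of 10 costimulation genes 9 were tested, 6 being higher and 1 lower (32% and 27.8% of all tested genes), with a median log2 fold change of 1.57; Cd70 fell below the filter. Cd274, which encodes the inhibitory ligand PD-L1, was 4.17-fold higher (limma adjusted p = 9.67e-06), Tnfsf9 6.54-fold (2.83e-05), Cd40 8.13-fold (3.86e-05) and Cd86 2.95-fold (4.74e-05). Cd80, a ligand of CD28 like Cd86, was the 1 that fell, with a log2 fold change of -0.98 (limma adjusted p = 0.00266), and was named after its value was seen.

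**Figure D5:**
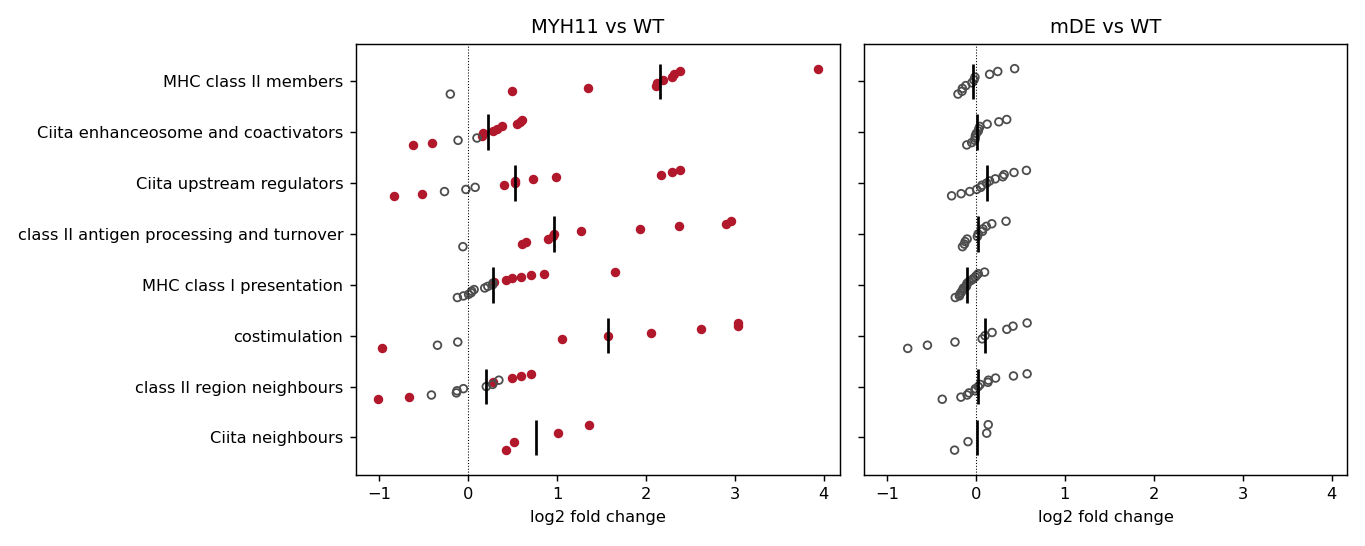
Log2 fold change of each tested gene of the listed groups in MYH11 against WT (left) and mDE against WT (right); filled points have a limma adjusted p under 0.05, open points do not, and bars mark list medians. The class II set and the costimulation and processing lists have medians of 2.16, 1.57 and 0.96 in MYH11, and every point is open in mDE.

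In mDE against WT libraries limma called 0 genes in each of the enhanceosome, upstream, processing, class I and costimulation lists, where 1.24% of all tested genes were called. At an unadjusted p under 0.05 there were 3 in the enhanceosome list, 4 upstream of Ciita, 0 in processing, 1 in class I and 1 in costimulation, where 19.8% of all tested genes passed. DESeq2, which called 5.92% of all tested genes, called 1 in the enhanceosome list and 2 upstream of Ciita, and edgeR, which called 1.18%, called 0 in all 5 lists. By limma 1 enhanceosome gene was called without MYH11 replicate 2 and 1 upstream gene without WT replicate 1.

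Genes beside the members were counted by position. Within the span of the class II genes on chromosome 17 and 100 kb to each side, 13 of 14 further protein-coding genes were tested, of which 4 were higher and 2 lower in MYH11 than in WT libraries, with a median log2 fold change of 0.20. The 6 called genes of 13 were a smaller share than the 59.8% of all tested genes. On leaving out 1 library, 4 to 6 were called, and the calls lost were those of H2-K1 and BC051142. H2-K1, Tap1, Tap2, Psmb8 and Psmb9 belong to this list as well as to class I presentation, so the 2 lists are not independent. Brd2 was 1.22-fold higher (limma adjusted p = 0.00108), the peptide transporter gene Tap1 1.62-fold (0.00244) and Psmb8 1.51-fold (0.00253), whereas Col11a2 had a log2 fold change of -1.02 (0.00113). Within 250 kb of Ciita 4 of 7 further genes were tested, and all 4 were higher, where 32% of all tested genes were, with a median of 0.76. Dexi, which overlaps Ciita on the other strand, was 2.02-fold higher (limma adjusted p = 0.000154), Clec16a 1.34-fold (0.000265), Nubp1 1.42-fold (0.00112) and Tvp23a 2.85-fold (0.0174). Tvp23a was not called without MYH11 replicate 2 (limma adjusted p = 0.0621). For mDE against WT libraries limma, edgeR and DESeq2 called 0 of these neighbours, beside 1.24%, 1.18% and 5.92% of all tested genes. At an unadjusted p under 0.05 there were 2 near the class II genes and 0 near Ciita, beside 19.8% of all tested genes.

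Markers of class II-positive cell types moved with the MYH11 genotype in differing directions, where 32% of all tested genes were higher and 27.8% lower in MYH11 than in WT libraries. Each list's sum was also formed without its most abundant gene, a step chosen after the sums were seen. Of 13 monocyte and macrophage markers, 11 were higher and 1 lower in MYH11 than in WT libraries, and their summed level was 189444 to 211537 in MYH11 and 64111 to 80803 in mDE libraries, against 53874 to 59715 in WT libraries. Without Ly6c2 it was 148253 to 177680 in MYH11 and 27974 to 34918 in mDE libraries, against 24466 to 25264 in WT libraries. Csf1r, the receptor that defines the lineage, was 6.44-fold higher (limma adjusted p = 1.13e-06). F13a1 was 7.97-fold higher (limma adjusted p = 9.75e-08), Ms4a6c 6.23-fold (1.27e-07) and Cd68 4.41-fold (1.78e-06), while Cx3cr1, named after its value was seen, was the 1 that fell (4.67-fold lower, 2.24e-05). F13a1 was also higher in mDE than in WT libraries (log2 fold change 0.54, limma adjusted p = 0.0304). That call was lost, at 0.0566 to 0.117, without MYH11 replicate 1, any 1 of the mDE libraries, WT replicate 2 or WT replicate 3.

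Of 12 conventional dendritic cell markers, 7 were higher and 3 lower in MYH11 than in WT libraries, and their sum was 28127 to 36004 in MYH11 and 66509 to 73300 in mDE libraries, against 64627 to 73208 in WT libraries. Cd24a alone made up 46.3% of this sum in MYH11 and 85.7% in mDE libraries, against 85.9% in WT libraries. Without Cd24a the direction turned, with 16816 to 17381 in MYH11 and 9411 to 10396 in mDE libraries, against 8802 to 10696.5 in WT libraries. Zbtb46, a transcription factor taken here as a defining marker, was 6.71-fold lower in MYH11 than in WT libraries (limma adjusted p = 5.22e-05). Xcr1 was not called (limma adjusted p = 0.188). Clec9a was 1.88-fold higher (limma adjusted p = 0.0299), a call lost at 0.0533 to 0.0755 without MYH11 replicate 2 or any 1 of the WT libraries. Clec10a was 16.9-fold higher (limma adjusted p = 8.75e-07), Batf3 17.9-fold (7.36e-06) and Cd209a 10.9-fold (1.3e-05), whereas Cd24a was 3.96-fold lower (1.14e-05). Irf4 belongs to this list as well as to the upstream regulators.

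Of 12 B cell markers, 2 were higher and 3 lower in MYH11 than in WT libraries, and their sum was 10543 to 13822 in MYH11 and 6596 to 10671 in mDE libraries, against 8064 to 9560.3 in WT libraries. The higher MYH11 sum rested on Blnk, without which it was 5976 to 9014 in MYH11 and 5915 to 9348 in mDE libraries, against 7454 to 8855 in WT libraries, with overlap between all groups. The defining gene Pax5 was not called (limma adjusted p = 0.159), Ms4a1 was 18.5-fold lower (4.87e-06), Fcer2a 9.58-fold lower (2.95e-05), Blnk 7.21-fold higher (1.03e-05) and Ebf1 2.42-fold higher (0.00203). Of 9 tested plasmacytoid dendritic cell markers, 6 were higher and 2 lower, and their sum was 6514 to 7006 in MYH11 and 4902 to 7054 in mDE libraries, against 4491 to 4841 in WT libraries. Without Tcf4 it was 3505 to 4028 in MYH11 and 3508 to 5612 in mDE libraries, against 3241 to 3671 in WT libraries, with overlap. Siglech, which defines them, was 3.61-fold higher in MYH11 than in WT (limma adjusted p = 0.000138). Siglech and Cox6a2 were also called in mDE against WT (limma adjusted p = 0.0154 and 0.0303). The 2 that fell in MYH11 against WT were Ly6d (2.80-fold lower, limma adjusted p = 8.68e-05) and Spib (1.52-fold lower, 0.00169). Spib was named after its value was seen. Siglech was not called in mDE without mDE replicate 3 (limma adjusted p = 0.0545), nor was Cox6a2 without mDE replicate 2, mDE replicate 3 or any 1 of the WT libraries (0.0763 to 0.114). No defining marker named here was at 0 in any library. The part of any of these cell types in the class II result was not tested.

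Markers of cells not known for class II also moved. Of 10 tested mast cell and basophil markers, 7 were higher and 3 lower in MYH11 than in WT libraries, with a sum of 94133 to 138670 in MYH11 and 24894 to 30198 in mDE libraries, against 25907 to 28224 in WT libraries. Without Hdc it was 85423 to 129312 in MYH11 and 9729 to 14924 in mDE libraries, against 12224 to 14749 in WT libraries. Ms4a2, an IgE receptor subunit gene, was 29.4-fold higher (limma adjusted p = 9.75e-08) and the protease gene Cpa3 15.1-fold (3.35e-06). The 3 that fell were Prss34 (7.13-fold lower, limma adjusted p = 3.53e-07), Mcpt8 (3.91-fold lower, 4.09e-05) and Hdc (1.51-fold lower, 0.0045). Mcpt8 and Hdc were named after their values were seen. All 11 neutrophil markers were lower in MYH11 than in WT libraries, with Ly6g 20.7-fold lower (limma adjusted p = 3.21e-05). Of 12 T and innate lymphoid cell markers 3 were higher and 4 lower, and of 10 stem and progenitor markers 8 were higher and 2 lower. The lymphoid sum was 4434 to 6726 in MYH11 and 7044 to 7816 in mDE libraries, against 9596 to 9999 in WT libraries. This order rested on Nkg7, named after its value was seen, and without it the sum was 2801 to 3772 in MYH11 and 1868 to 2041.5 in mDE libraries, against 1353 to 1874 in WT libraries. The stem and progenitor sum was 12022 to 14481 in MYH11 and 12800.1 to 15466 in mDE libraries, against 11427 to 12960.5 in WT libraries. Without Kit it was 8796 to 10959 in MYH11 and 5814 to 8307 in mDE libraries, against 4073 to 5599 in WT libraries, with no overlap between the groups. Flt3, of the last list, was also higher in mDE than in WT libraries (log2 fold change 1.05, limma adjusted p = 0.022), but not at 0.0649 to 0.0933 without mDE replicate 2, mDE replicate 3, WT replicate 2 or WT replicate 3. Their part in the class II result was not tested either.

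The genes whose profile over the 9 libraries was most like that of Ciita were not class II genes. Likeness was the root mean square difference of log2(normalised reads + 1), each gene centred on its own WT mean, over 15948 genes. It is given as a description without a test, since all genes share the libraries and their scaling. The differences were not scaled, so the measure depends on the size of a change. The members' distances from Ciita thus largely restate the log2 fold changes in MYH11 against WT, 3.93 for Ciita and 2.38 for H2-DMb1. The nearest were Col15a1 at 0.22, Adora3 at 0.24, P2ry14 at 0.24, Msr1 at 0.25 and Pgap1 at 0.25. The class II gene nearest to Ciita was H2-DMb1 at 0.91, rank 490, and H2-DMb2 was the farthest, rank 9936. For the mean profile of Cd74, H2-Aa, H2-Ab1 and H2-Eb1, to which these 4 genes are near in part by construction, the nearest other genes were Prdm1 at 0.23, Clec4a1 at 0.27, Tbc1d9 at 0.29, Tmem246 at 0.29 and Bmf at 0.29. H2-DMb1 had rank 14 in that order, H2-DMa 26, H2-Oa 339, Ciita 2608, H2-Ob 3443 and H2-DMb2 9066. Prdm1 encodes BLIMP-1, known in B cells as a repressor of Ciita. It averaged 388 ± 40.4 in MYH11 and 82.0 ± 41.0 in mDE libraries, against 88.6 ± 30.2 in WT libraries, 4.38-fold higher in MYH11 than in WT (limma adjusted p = 0.000388).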

How the data were processed

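The deposited signal table gives each gene a normalised value in each library. Within a library the values were whole multiples of the smallest nonzero value, as counts divided by a library size factor would be. Per the submitters' processing notes, CASAVA 1.8.2, STAR 2.4, RSEM and DESeq2 were used on GRCm38, with no role or order given. The log2 fold change and p-value columns, as deposited by the authors, were not used, since the header leaves their comparison unnamed. Whole reads were recovered for 100% of values (relative tolerance 1e-06). Symbols were found for 42462 and GENCODE M21 coordinates for 42548 of 43629 gene identifiers.

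Genes kept by filterByExpr (edgeR 4.0.16) on these reads were fitted with limma-trend (limma 3.58.1, R 4.3.3) on log2(value + 1), so fold changes on that scale understate those of low genes. All 9 libraries entered with genotype as the only term (6 residual and 3.2 prior degrees of freedom). Tests are two-sided, adjusted by Benjamini-Hochberg over 15948 genes, with a threshold of 0.05. Fold values are ratios of group means. Per-kb levels use the summed exon length in GENCODE M21. The fit was run on simulated counts in which few genes were changed and the scaling factors were known, with the outcome not reported here. Such data cannot test the scaling or the error rate where most genes are called, as in MYH11 against WT. Counts recovered from the table were tested with edgeR, DESeq2 (1.42.0) and voom as alternatives.

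The members and lists were chosen with earlier results of these data known. Named genes were all 10 members, up to 4 per list with the smallest adjusted p in MYH11 against WT, up to 2 called in mDE against WT, the defining markers, all further class II genes and the 5 nearest genes by profile; exceptions are stated, and a few of these genes are not reported here. Promoter sequences are RefSeq's (GRCm38.p6).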

Additional observations from a re-analysis of the deposited data

How the results depend on the processing

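Over 21 alternatives (3 scalings, 2 filters, 2 pseudocounts, edgeR, DESeq2, voom, the 2 compared groups alone, the replicate block and leaving out each of 9 libraries), 9 of 10 class II genes were called higher in MYH11 against WT libraries, or 8 on leaving out any 1 of the 4 libraries named for H2-Ob. In MYH11 against mDE the count was 8 throughout, and in mDE against WT 0. Genes changed in mDE against WT numbered 198, and 123 with a filter of 5 CPM in 3 libraries, 944 with DESeq2, 61 with only the 2 groups compared, and 31 to 257 on leaving out 1 library; the cause was not tested beyond the fewer genes or samples entered. Uncalled values changed sign in mDE against WT: with DESeq2 Ciita was 0.0133 and H2-Oa 0.0103. On leaving out 1 library the mDE against WT log2 fold change was -0.26 to 0.20 for Ciita, -0.53 to 0.085 for Cd74, -0.50 to 0.11 for H2-Aa, -0.57 to 0.0145 for H2-Ab1, -0.57 to 0.064 for H2-Eb1, -0.27 to 0.12 for H2-DMb2 and -0.25 to 0.14 for H2-Oa. In MYH11 against mDE it was -0.32 to 0.068 for H2-DMb2 and -0.10 to 0.27 for H2-Ob. Where 2 libraries were left in a group, the spread was that of all groups.

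With the replicate block, 9452 genes were called in MYH11 against WT (9536 without it), 101 in mDE against WT and 8786 in MYH11 against mDE (8869). Libraries with the same replicate number correlated at -0.15 to 0.12 in their deviations, those with different numbers at -0.18 to 0.21, so the numbers were not taken to pair libraries. Members' calls were the same with the block. Depth did not limit the members, each of which had at least 100 reads in every library.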
